A study of Mus musculus with 20 samples.

Results

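Arntl, Clock and Npas2 encode the activating arm of the circadian clock, and their rows were followed across all 20 libraries of a mouse gastrocnemius RNA sequencing series. The 3 genes were chosen by name, as the gene for BMAL1 (listed in the table under the symbol Arntl) and the genes for its partner proteins CLOCK and NPAS2, out of 53311 rows in the counts table. All 3 passed the filter on low counts, as did 13560 genes in all. Per the labels, every mouse carried Cre and floxed iMSBmal1 alleles (Cre+:iMSBmal1 fl/fl), so the control animals shared the same alleles as the others. The groups were vehicle without exercise (called vehicle at rest), vehicle with exercise, iMSBmal1KO without exercise (knockout-labelled at rest) and iMSBmal1KO with exercise, with 5 samples each. Muscles were collected at zeitgeber time 13, the hours since lights on, and the exercised mice were sampled 1 h after 30 min on a treadmill. The promoter that drives Cre, the inducing agent and the ages of the mice are not given in the sources used here. As the labelled alleles are the same in all mice, genotype below means the iMSBmal1KO label against vehicle. No group lacked these alleles, so the part of the inducing treatment itself in these differences was not tested. For the exercised knockout samples, both the description and the column headers of the deposited counts mention training. Their title and treatment label give acute exercise, which was followed here. The labels do not say that the samples were separate animals, so p-values measure the spread between samples, which may in part be technical.

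BMAL1 is a transcription factor of the bHLH-PAS family that binds DNA only with a partner, which is CLOCK or its close relative NPAS2. The pair switches on genes with an E-box in their regulatory DNA, among them Per and Cry genes, whose proteins shut the pair down again, and Nr1d1 and Nr1d2, which encode the REV-ERB repressors. REV-ERB proteins repress Arntl, Clock and Npas2 through another DNA element, the RORE, where the ROR proteins activate. In skeletal muscle this clock drives daily rhythms of genes for glucose and lipid use.

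Arntl (ENSMUSG00000055116.8) lies on chromosome 7, from 113207465 to 113314126 on the + strand of GRCm38 in the GENCODE annotation. Clock (ENSMUSG00000029238.11) lies on the - strand of chromosome 5, from 76209868 to 76304792. Npas2 (ENSMUSG00000026077.15) lies on the + strand of chromosome 1, from 39193731 to 39363236. The RORE-like stretches next to the Arntl start are shown because the RORE is the element through which REV-ERB and ROR proteins act on these genes. They come from RefSeq promoter windows of GRCm38.p6, which span 250 bases before to 50 bases after each annotated start. Capitals mark the match, and each is written along the strand of its gene.
Arntl, first RORE-type match (chr7:113207493-113207522, + strand): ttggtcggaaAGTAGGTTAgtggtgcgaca
Arntl, second RORE-type match (chr7:113207529-113207558, + strand): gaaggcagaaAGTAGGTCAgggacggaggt
Clock, AGGTCA on the opposite strand (chr5:76303604-76303633, - strand): agctttggcctcTGACCTgacagatgacag
The motif AGTAGGTNA was written with the Arntl window in view. On both strands it was found in 0.591% of 32851 promoter windows, and in both windows of Arntl. The Arntl windows overlap, and the first match is the same site in both, so they are not separate finds. The shorter core AGGTCA, which the second Arntl match contains, was found in 16.3% of all windows. The Arntl matches lie in exonic untranslated sequence of 1 and of 2, respectively, of the 6 annotated transcripts. The Clock match lies in an intron, in the last of its 3 windows. The single Npas2 window held none of the searched letters, and none of the windows of the 3 genes held the E-box CACGTG (7.15% of all windows) or the D-box TTATGTAA (0.938%). A match describes the letters and not a bound site.

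Libraries held 8045154 to 11269812 counts, and mitochondrial transcripts took 7.55% to 15.0% of them. Levels below are CPM, a gene's counts relative to the library total after TMM scaling, which corrects for library size and composition. Markers of fast muscle and muscle in general, 10 genes, summed to 113436 to 193721 CPM, so the tissue was skeletal muscle. These markers do not tell the gastrocnemius from other muscles. Slow-fibre markers, 7 genes such as Myh7 and Tnnt1, varied more than any other marker list, from 4.32 to 2746 CPM, and were under 50 CPM in 5 libraries, of which 3 were vehicle and 2 knockout-labelled. Endothelial markers summed to 75.1 to 155 CPM, fibroblast markers to 226 to 563 CPM, macrophage markers to 30.4 to 71.7 CPM, fat markers to 61.0 to 183 CPM, blood markers to 48.1 to 366 CPM, nerve markers to 18.3 to 140.5 CPM and satellite cell markers to 2.84 to 7.66 CPM. No listed marker was at 0 in any group. Of the 5 blood markers 1 was called lower in knockout-labelled muscle after exercise (Hba-a2, an alpha globin, log2 fold change -1.90, edgeR adjusted p 0.0198), and the median of the 5 was -0.99. No other listed marker was called between genotypes, and the part of blood in the genotype results was not tested. These cell types are present in whole muscle in every group, and in bulk tissue fewer cells of a type and less RNA per cell cannot be told apart.

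Arntl, the gene that the knockout label names, had no lower mean in the libraries labelled knockout, and its genotype difference was within the spread between libraries. Vehicle muscle at rest held 9.74, 9.94, 12.8, 14.3 and 14.9 CPM of Arntl. Knockout-labelled muscle at rest held 15.9, 16.4, 12.7, 15.3 and 12.1 CPM. The groups overlapped, with 3 of 5 knockout-labelled libraries above the highest vehicle library. After exercise the vehicle libraries spread widely, at 7.90, 17.9, 9.15, 21.4 and 15.1 CPM. The knockout-labelled libraries after exercise lay inside that span, at 11.5, 15.5, 21.2, 20.1 and 13.8 CPM. In order of the mean, the resting vehicle group had 12.3 ± 2.39 CPM, the exercised vehicle group 14.3 ± 5.71, the resting knockout-labelled group 14.5 ± 1.94 and the exercised knockout-labelled group 16.4 ± 4.15 (SD, n = 5 per group). No pair of neighbours in that order had separate ranges.

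**Figure D1:**
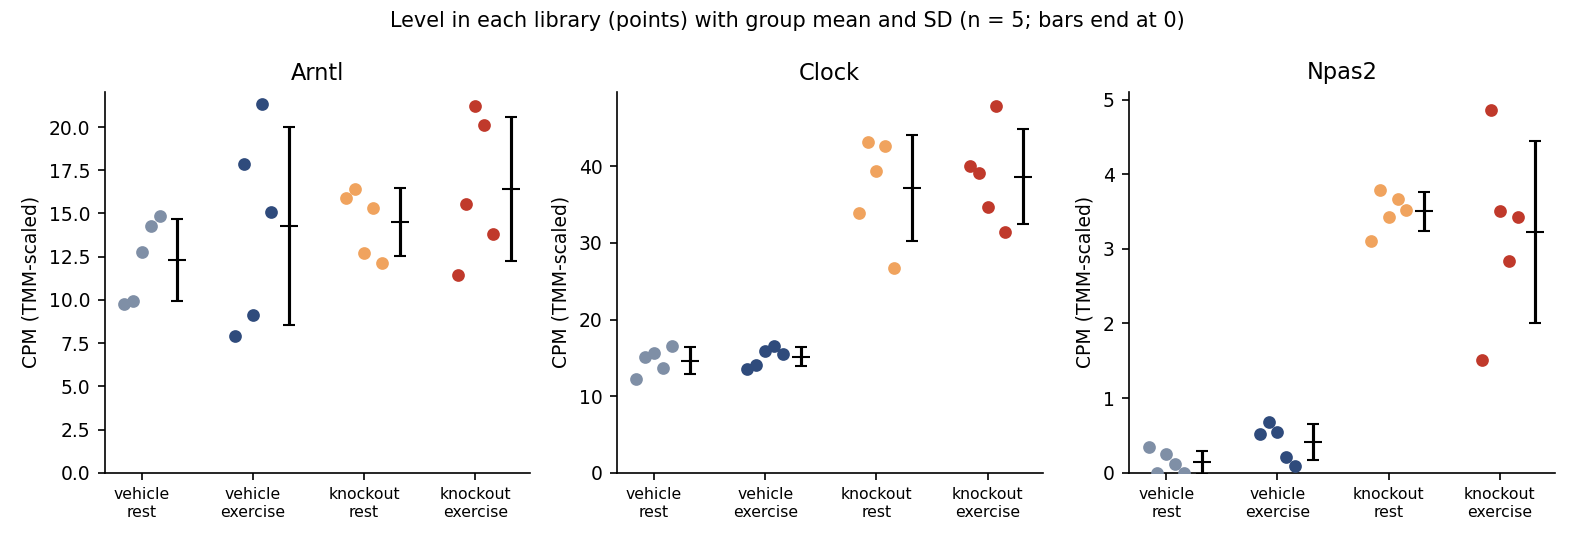
TMM-scaled CPM of Arntl, Clock and Npas2 in each of the 20 libraries (points, in order of replicate number), with the mean and SD of the 5 libraries of a group beside them. Clock and Npas2 separate vehicle from knockout-labelled libraries in both exercise states, while Arntl spans 7.90 to 21.4 CPM with no separation.

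The genotype difference was then tested with edgeR over all 13560 genes. At rest the fold of knockout-labelled over vehicle Arntl was 1.18 (log2 fold change 0.24, SE 0.23, adjusted p 0.725). In exercised mice it was 1.15 (log2 fold change 0.20, SE 0.23, adjusted p 0.689). Averaging both exercise states, which uses all 20 libraries, gave a fold of 1.16 with a 95% confidence interval from 0.922 to 1.47 (adjusted p 0.446). At rest 3.86% and after exercise 6.42% of all genes were called. The interval leaves room for a rise and for a small fall, and its lower end is a fall by 7.77%. Over the same average, 11% of all genes were called at an adjusted p under 0.05, 5.18% higher and 5.78% lower. The counts are sums over the whole gene, so a transcript that lacks only the floxed exons still adds reads, and this row does not check recombination. The libraries are called knockout-labelled, and each genotype direction rests on the labels.

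Each Arntl value rested on 77 to 198 counts. Counting error alone gives a coefficient of variation of 8.18% to 9.54% at these depths, while the libraries varied by 13.4% in knockout-labelled muscle at rest and by 40.0% in vehicle after exercise. An antisense gene, Gm45355, shares 33 exonic bases with Arntl and had a resting level of 1.30 ± 0.270 CPM in the vehicle group and 1.73 ± 0.643 CPM in the knockout-labelled group (SD, n = 5 per group). No source says whether counting was stranded, so reads of these bases cannot be assigned to one of the genes.

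Within vehicle muscle the spread of Arntl ran with that of the slow-fibre markers, a relation that was looked for after the values had been seen. The slow-fibre score, the mean log2 CPM of the 7 markers, was 7.30, 7.03, 6.15, 5.32 and 1.74 in the vehicle libraries at rest, in the order in which Arntl is given above. Arntl was higher at each step down of this score. Over the 10 vehicle libraries Pearson's r was -0.82 (permutation p = 0.00517, two-sided, permuted within exercise state) and Spearman's rho was -0.85 (permutation p = 0.00157). Adjusted over the 9 relations computed in this family, the p-values were 0.0465 and 0.0141. Without the 2 libraries farthest from the median score, r was -0.94.

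In the 10 knockout-labelled libraries the relation did not pass the test, with r at -0.28 (permutation p = 0.496, adjusted 0.638) and rho at 0.018 (permutation p = 0.972, adjusted 0.972). Without the 2 farthest libraries r was 0.24. The difference between both genotypes was not tested, nor was the part of the slow-fibre markers in the Arntl values. The vehicle libraries with the most Arntl, 21.4 and 17.9 CPM after exercise, had scores of 2.04 and -0.95, while the knockout-labelled library with the most Arntl had a score of 6.31. With the score as a covariate, the genotype difference of Arntl over both states was 0.26 on the log2 scale (adjusted p 0.231). After leaving out the 5 libraries with slow-fibre markers under 50 CPM, a choice made after seeing the data, the difference after exercise was 0.52 (adjusted p 0.370), against 0.20 with them.

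**Figure D2:**
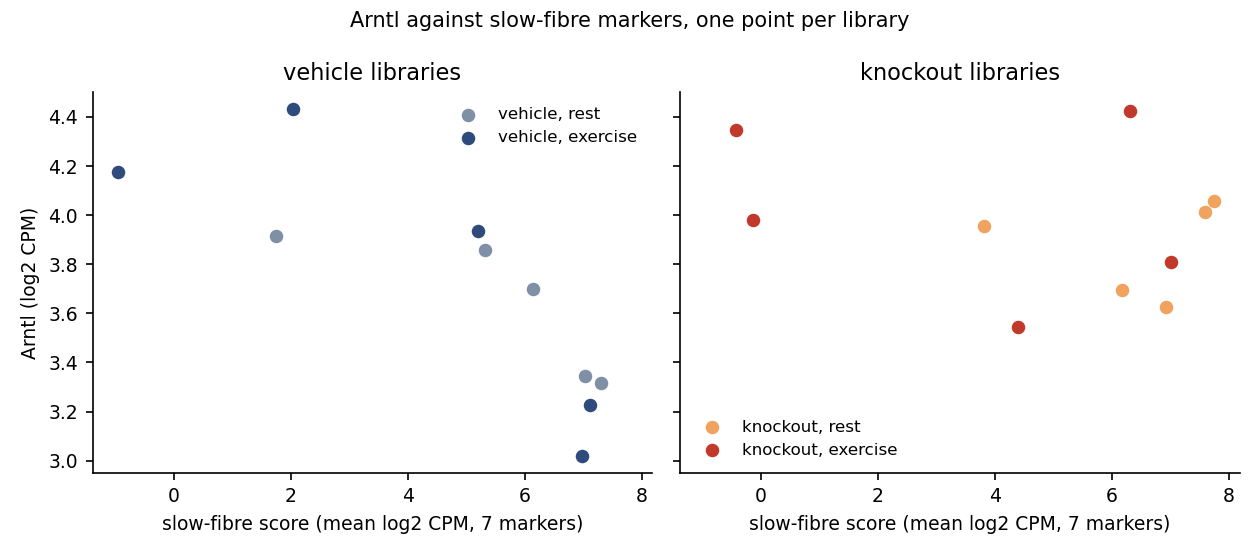
Arntl (log2 CPM) against the slow-fibre score (mean log2 CPM of 7 marker genes) in the 10 vehicle and the 10 knockout-labelled libraries, 1 point per library, coloured by exercise state. Arntl is lower where the score is higher in vehicle (r = -0.82), and r is -0.28 in knockout-labelled muscle.

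Clock, the usual partner of BMAL1 and a histone acetyltransferase, was higher in every knockout-labelled library than in any vehicle library. Vehicle libraries held 12.2, 15.1, 15.7, 13.7 and 16.5 CPM at rest and 13.5, 14.1, 15.9, 16.5 and 15.6 CPM after exercise. Knockout-labelled libraries held 33.9, 43.2, 39.4, 42.7 and 26.7 CPM at rest. After exercise they held 40.0, 39.2, 34.7, 47.9 and 31.5 CPM. The highest of 10 vehicle libraries stood at 16.5 CPM and the lowest of 10 knockout-labelled libraries at 26.7 CPM. Ranges of 10 against 10 libraries were separate for 1.77% of all genes tested.

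Group means of Clock were 14.6 ± 1.73 and 15.1 ± 1.25 CPM in vehicle at rest and after exercise, and 37.2 ± 6.92 and 38.7 ± 6.24 CPM in knockout-labelled muscle (SD, n = 5 each). Clock rose 2.54-fold at rest (95% confidence interval 2.10 to 3.06, edgeR adjusted p 3.98e-07) and 2.55-fold after exercise (2.12 to 3.07, adjusted p 3.01e-07). Genes called higher made up 1.8% of the genes tested at rest and 2.67% after exercise. That split depended on the scaling after exercise, where 41.6% of the calls were higher with TMM and 53.1% when libraries were scaled by size only. By p-value Clock ranked 14 of 13560 genes at rest and 15 after exercise, while by size of the rise it ranked 57 and 61. The rise thus ranked high by size and higher still by p-value, as it was large against its spread. The call held in every alternative run, with log2 fold changes from 1.24 to 1.44 in the tests of both states.

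Clock also varied less than Arntl within vehicle muscle, by 11.8% at rest and 8.26% after exercise, where counting error alone gives 8.69% and 8.33%. In knockout-labelled muscle it varied by 18.6% and 16.1%, against a counting error of 5.50% and 5.35%. The lowest knockout-labelled library at rest, replicate 5 with 26.7 CPM, was also the lowest of that group in Arntl. Across the 10 vehicle libraries Arntl and Clock had r = 0.42 and rho = 0.43 (permutation p = 0.172 and 0.202, adjusted 0.516 and 0.554), and r was 0.13 without the 2 farthest libraries. Across the 10 knockout-labelled libraries the values were r = 0.37 and rho = 0.31 (permutation p = 0.264 and 0.403, adjusted 0.594 and 0.725), and r was 0.75 without the 2 farthest. These relations did not pass the test. Against the slow-fibre score, Clock had r = -0.30 and rho = -0.42 in vehicle (permutation p = 0.373 and 0.246, adjusted 0.638 and 0.554). In knockout-labelled muscle it had r = -0.57 and rho = -0.44 (permutation p = 0.0332 and 0.179, adjusted 0.149 and 0.554), and r without the 2 farthest libraries was -0.51 and -0.44.

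Npas2, which can replace CLOCK as the partner of BMAL1, was nearly undetected in vehicle muscle and present in every knockout-labelled library. Vehicle libraries at rest held 3, 0, 2, 1 and 0 counts, and a count of 0 still allows up to 3. Vehicle libraries after exercise held 5, 6, 5, 2 and 1 counts. Knockout-labelled libraries held 25, 33, 31, 34 and 33 counts at rest and 13, 45, 32, 21 and 40 counts after exercise. The ranges were separate between genotypes in both states, and 5.8% of all genes had separate ranges at rest and 6.29% after exercise.

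In CPM, Npas2 stood at 0.143 ± 0.153 in vehicle at rest, 0.410 ± 0.245 in vehicle after exercise, 3.23 ± 1.21 in the exercised and 3.50 ± 0.260 in the resting knockout-labelled group (SD, n = 5 per group). At rest its log2 fold change between genotypes was 4.57 (SE 0.50, edgeR adjusted p 2.86e-06). In exercised mice it was 2.97 (SE 0.42, adjusted p 5.95e-05). Summed over the libraries of a group, 6 counts in vehicle stood against 156 in knockout-labelled muscle at rest, a ratio of 26.4 with an interval from 11.8 to 73.0. After exercise 19 stood against 151, a ratio of 8.21 (5.08 to 14.0). These exact 95% intervals were taken on the summed counts, so they cover counting error and not the spread between libraries. Reads were also not tied to single molecules. The rise was called in every alternative run, although its size at rest is set by 6 vehicle counts.

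By size of the rise, Npas2 ranked 3 at rest and 9 after exercise among the 13560 genes tested. It passed the filter on low counts only through the knockout-labelled libraries, as vehicle libraries held at most 6 counts. These ranks therefore rest on near-absent vehicle counts and are not separate support for the rise. The level of Npas2 remained low, and its mean log2 CPM lay at percentile 5.27 of the genes tested. Knockout-labelled libraries at rest varied by 7.43%, below the 17.9% that counting error alone gives at these depths. After exercise they varied by 37.6% against 18.2%, with the lowest library (replicate 1, 13 counts) at 1.50 CPM. None of its relations within the 10 knockout-labelled libraries passed the test. Against Arntl it had these values (r = 0.34, rho = 0.18, permutation p = 0.485 and 0.674, adjusted 0.638 and 0.972, r without the 2 farthest libraries -0.25). Against Clock it had r = -0.13 and rho = -0.030 (permutation p = 0.725 and 0.946, adjusted 0.816 and 0.972, r without the 2 farthest -0.068). Against the slow-fibre score it had r = -0.037 and rho = 0.079 (permutation p = 0.926 and 0.833, adjusted 0.926 and 0.972, r without the 2 farthest 0.46). In vehicle muscle Npas2 was too low for such a comparison.

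**Figure D3:**
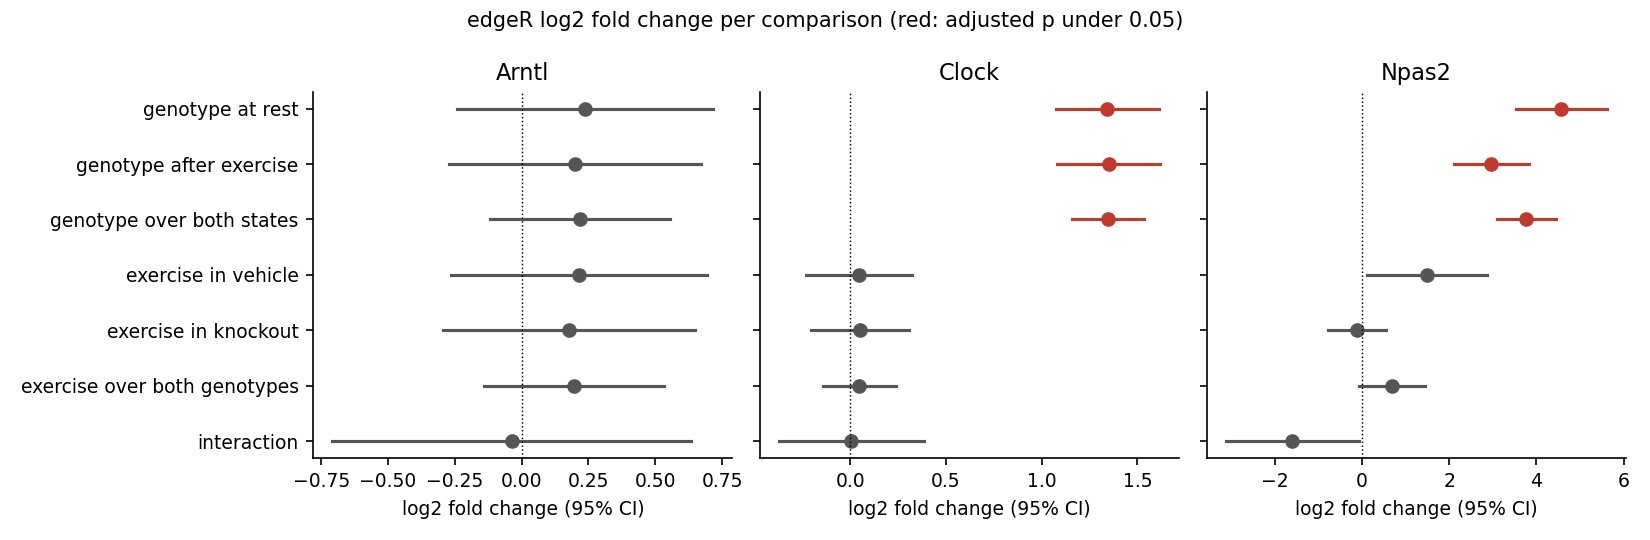
edgeR log2 fold changes (points) with 95% confidence intervals (lines) of Arntl, Clock and Npas2 in 7 comparisons, each panel with its own axis, where red marks an adjusted p under 0.05. Genotype intervals of Clock and Npas2 lie above 0, and all intervals of Arntl include 0.

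Because the 3 proteins act in pairs, the levels were also compared per kilobase of exon. Merged exons measured 7523 bases for Arntl, 13727 for Clock and 4791 for Npas2 in GENCODE. On that scale the ratio of Clock to Arntl was 0.666 ± 0.114 in the resting vehicle group and 1.41 ± 0.222 in the resting knockout-labelled group. After exercise it was 0.663 ± 0.265 and 1.35 ± 0.367 (SD, n = 5 each). At rest the groups did not overlap, with a highest vehicle ratio of 0.834 and a lowest knockout-labelled ratio of 1.17, and after exercise they did. The mean ratio was 2.12 times as high in knockout-labelled muscle at rest and 2.04 times after exercise, a figure that does not depend on gene length. The order of both genes does depend on it. With the longest coding transcript as the length (2976 bases for Arntl and 9744 for Clock), the knockout-labelled ratio was 0.785 at rest and 0.752 after exercise, so which of the genes is the more abundant cannot be read from these counts.

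Npas2 made up 2.87% ± 3.19 of the summed Clock and Npas2 level per kilobase in vehicle at rest and 7.24% ± 4.41 in vehicle after exercise. In knockout-labelled muscle its share was 21.6% ± 3.25 at rest and 19.3% ± 6.94 after exercise (SD, n = 5 each). At rest the highest vehicle library had a share of 7.57% and the lowest knockout-labelled library 19.7%. After exercise the ranges overlapped, since vehicle replicate 2 reached 12.2% and knockout-labelled replicate 1 had 9.72%. Clock thus remained the more abundant of the partner transcripts in every library. These ratios combine members whose differences are given above and were not tested.

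**Figure D4:**
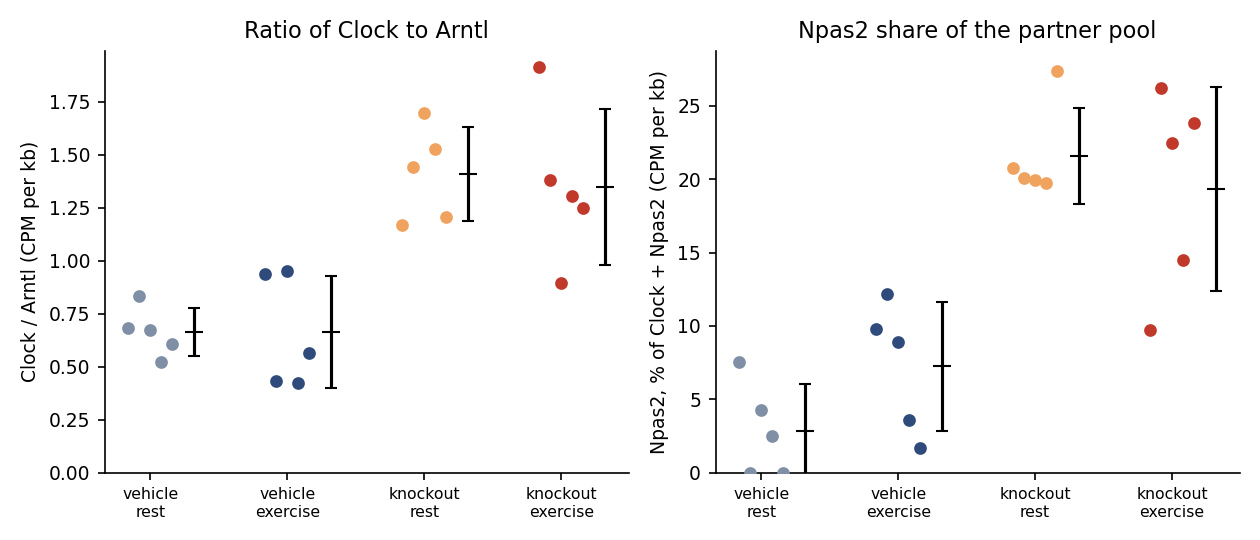
Ratio of Clock to Arntl (left) and Npas2 as a percentage of Clock plus Npas2 (right), both from CPM per kilobase of merged exon, in each library (points) with group mean and SD (n = 5). Knockout-labelled libraries at rest lie above all vehicle libraries at rest in both panels, and after exercise the ranges overlap.

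The second question was whether a bout of running changes these genes. None of the 3 was called in any exercise comparison. Their ranges overlapped between rest and exercise in both genotypes, where 2.04% of all genes had separate ranges in vehicle and 0.848% in knockout-labelled muscle. In vehicle muscle, where 0.804% of all genes were called (0.605% higher and 0.199% lower), the log2 fold change with exercise was 0.21 for Arntl (edgeR adjusted p 0.895), 0.046 for Clock (adjusted p 0.977) and 1.49 for Npas2 (SE 0.67, unadjusted p 0.0351, adjusted p 0.484). The Npas2 value rests on 6 counts at rest and 19 after exercise, a ratio of 2.99 with a counting interval from 1.15 to 9.16. In knockout-labelled muscle the values were 0.18, 0.053 and -0.11, each with an adjusted p of 0.9995. No gene was called there (0%) by edgeR, DESeq2 or limma-voom, and 639 (4.71% of all) had an unadjusted edgeR p under 0.05.

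The precision of these values differed between the genes. For Clock the exercise effect averaged over both genotypes had a 95% confidence interval from 0.908-fold to 1.18-fold. For Arntl the interval ran from 0.907-fold to 1.45-fold, and for Npas2 from 0.951-fold to 2.73-fold. The adjusted p-values of these averages were 0.983, 0.891 and 0.679, and 0.634% of all genes were called (0.494% higher and 0.14% lower). The interaction, which asks whether the exercise response differs between genotypes, was 0.0069 on the log2 scale for Clock (95% confidence interval -0.37 to 0.38) and -0.037 for Arntl (-0.71 to 0.63). Both signs changed under other settings. For Npas2 the interaction was -1.60 (-3.13 to -0.075, unadjusted p 0.0406, adjusted p 0.849). edgeR called 0 genes for the interaction, with 791 (5.83% of all) at an unadjusted p under 0.05, DESeq2 called 3 and limma-voom 0.

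The other genes of the feedback loop were counted from lists drawn up with earlier results of these data known. Of 12 genes that BMAL1 and its partner activate, 10 fell in knockout-labelled muscle at rest and 8 after exercise, and none rose. Of the 10, Bhlhe41 lost its call in 8 of 23 alternatives (adjusted p up to 0.129, without vehicle rest replicate 4). The median log2 fold change of these genes was -1.21 at rest and -0.92 after exercise, against 0.0087 and 0.015 over all genes tested. Genes called lower were 2.06% of all at rest and 3.75% after exercise. Dbp, a PAR bZIP factor, fell by 2.66 on the log2 scale in resting mice (SE 0.10, edgeR adjusted p 2.80e-14) and by 2.39 in exercised mice (adjusted p 2.62e-13). Ciart, a repressor of the pair, fell by 2.33 and 2.13 (adjusted p 0.00525 and 0.00130). Per2 fell by 1.11 and 0.91 (adjusted p 0.00122 and 0.00412) and Per3 by 1.41 and 0.84 (adjusted p 1.76e-04 and 0.0168). Tef, Hlf and Usp2 also fell in both states. Exons of Dbp overlap Sphk2 on the opposite strand, so reads of the shared bases may be mixed.

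Nr1d1 and Nr1d2, whose REV-ERB proteins act on the RORE, were both listed among the activated genes, and Nr1d2 alone of the pair was called. At rest Nr1d2 fell by 1.46 on the log2 scale, with 87.8 ± 13.3 CPM in the vehicle and 31.8 ± 7.83 CPM in the knockout-labelled group (SD, n = 5 each, edgeR adjusted p 1.65e-05) and had a log2 fold change of -1.60 after exercise (adjusted p 4.49e-06). Nr1d1 had 40.9 ± 5.50 CPM in the resting vehicle group and 40.1 ± 5.09 CPM in the resting knockout-labelled group (log2 fold change -0.029, adjusted p 0.956), and its log2 fold change after exercise was 0.29 (adjusted p 0.239). Exons of Nr1d1 overlap Thra on the opposite strand, so reads of the shared bases cannot be assigned to one of these genes. The size of that overlap was not measured here. Rora, which encodes a RORE activator, was not called at rest (log2 fold change -0.31, adjusted p 0.348) and fell after exercise (-0.59, adjusted p 0.0183), where the call was lost in 2 of 23 alternatives (adjusted p up to 0.0578, without vehicle after exercise replicate 2). Rorb had at most 4 counts in any library and was not tested.

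Among other genes listed as RORE-controlled, Cry1 and Nfil3 rose at rest, and of this pair Cry1 was called after exercise. Cry1, a repressor of the pair, had 15.4 ± 1.01 CPM in the resting vehicle group and 22.2 ± 1.74 CPM in the resting knockout-labelled group (log2 fold change 0.52, adjusted p 0.00224), and its log2 fold change after exercise was 0.49 (adjusted p 0.00307). The rise of Cry1 was smaller than that of Clock at 1.34 and of Npas2 at 4.57, although these differences between genes were not tested. Nfil3, a bZIP repressor, had a log2 fold change of 1.37 at rest (adjusted p 3.01e-05) and 0.12 after exercise (adjusted p 0.758). Cry2, the other cryptochrome, fell in both states (log2 fold change -0.66 and -0.83, adjusted p 0.00164 and 8.45e-05). Arntl, listed with these genes in textbooks, had the smallest genotype difference of the 3 members, at 0.24 and 0.20.

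**Figure D5:**
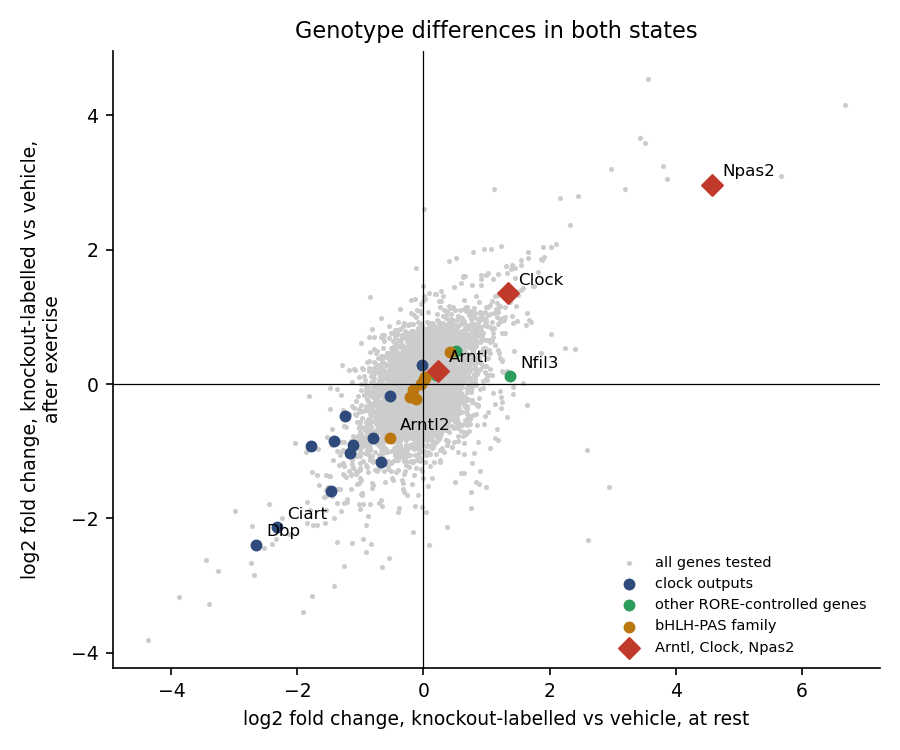
Log2 fold change of knockout-labelled over vehicle at rest (x axis) and after exercise (y axis) for all 13560 genes tested (grey), with the members (red diamonds), 12 clock output genes (blue), other RORE-controlled genes (green) and bHLH-PAS relatives (brown). Clock lies at 1.34 and 1.35, Npas2 at 4.57 and 2.97, and Arntl close to the bulk of the genes at 0.24 and 0.20.

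The bHLH-PAS family, to which all 3 members belong, was examined for relatives that move with them. Of 16 relatives listed, 10 passed the filter on low counts. None was called at rest or after exercise (0 higher and 0 lower in each state), where 3.86% and 6.42% of all genes were called, so a count of 0 of 10 is near the background. The other 6 (Npas1, Npas3, Npas4, Sim1, Ahrr and Arnt2) held at most 13 counts in any library and were not tested. Averaged over both states, where 11% of all genes were called, Arntl2, the paralog of Arntl, was called lower (log2 fold change -0.67, SE 0.22, adjusted p 0.0497) and Hif1a, the hypoxia factor, higher (0.45, SE 0.12, adjusted p 0.0173). Arntl2 held 73 counts in all in vehicle at rest and 49 in knockout-labelled muscle, and 71 and 39 after exercise. Hif1a was named after its values were seen. The Arntl2 call was lost in 21 of 32 alternatives (adjusted p up to 0.127, without a filter), while that of Hif1a was kept in all 32. Arnt, the partner of the hypoxia factors, was not called (log2 fold change -0.13, adjusted p 0.135).

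Genes with the profile most like each member were found by the root mean square difference of log2 CPM over the 20 libraries, each gene centred on its own mean, among 11723 genes with a mean log2 CPM of at least 1. Rab11b, which encodes a small GTPase of vesicle recycling, was the most like Clock, with a difference of 0.25 and a rise from 60.8 to 116 CPM at rest. AL626769.1, Gpc4, Ptpn4 and Agpat3 followed, with differences of 0.26 to 0.27. The mirror image of Clock was closest in Wnk2 (0.24), Tef (0.25) and Rhobtb1 (0.28). For scale, the median difference from Clock was 0.73 over these genes.

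For Npas2, the nearest profiles were those of Cdkn1a (0.67), Prss55 (0.68), Tead4 (0.78), Igf2bp2 (0.81) and Gstm7 (0.88), against a median of 1.60. Cdkn1a, a cell cycle inhibitor, had resting levels of 6.31 CPM with vehicle and 92.3 CPM in the knockout-labelled group, and Tead4, a transcription factor, at 9.75 and 39.5 CPM. The mirror image of Npas2 was closest in Aebp1 (0.54), Car3 (0.58) and Dbp (0.59). With a prior count of 5 in the log values, 3 of these 5 nearest genes were kept. The genes nearest to Arntl were Ift88 (0.23), C2cd3 (0.23), Fntb (0.24), Gm13835 (0.25) and Trp63 (0.25), and its mirror image was closest in Ick (0.22), Nr1i3 (0.24) and Man2c1os (0.25), against a median of 0.46. No gene of the feedback loop was among the 5 nearest of any member.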

How the data were processed

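RNA sequencing of 20 gastrocnemius samples was used as the whole-number read counts per gene that the authors deposited, with no normalization in the file. The submitters' processing notes name STAR 2.7.8a, Partek, DESeq2, mm10 and GRCm39 without a role, so the build, annotation and strand used for counting are not given in the sources used here. All 106 repeated symbols were kept as separate rows. Groups came from the labels. No libraries were alike enough to be 1 library deposited more than once.

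Genes were filtered with filterByExpr (minimum count 10), scaled by TMM and tested with edgeR 4.0.16 (robust quasi-likelihood, all 20 samples in 1 fit, R 4.3.3), with Benjamini-Hochberg adjustment over 13560 genes and a threshold of 0.05. Log2 CPM used a prior count of 2. The fit was tested on simulated data. DESeq2 1.42.0, limma 3.58.1 (voom), other scalings and filters, a replicate block, a slow-fibre covariate and leaving out each library were alternatives. Correlations were permuted 100000 times within exercise state. Gene lengths and positions came from GENCODE on GRCm38 and promoter windows from RefSeq.

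The members and gene lists were chosen with earlier results of these data known. Named genes are the members, list genes called at rest or after exercise, direct counterparts, and for each member the 5 most alike and 3 most opposite profiles. The result of 1 listed gene is not reported here.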

Additional observations from a re-analysis of the deposited data

Results flagged for a closer look

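The share of Npas2 in the summed Clock and Npas2 level per kilobase had 1 library far from the others of its group. In knockout-labelled muscle at rest, replicate 5 stood at 27.4% while the other 4 libraries stood between 19.7% and 20.8%. Its gap to the nearest library was 0.863 of the range of the group, above the Dixon limit of 0.71 for 5 samples. In that library Npas2 was at 3.51 CPM, close to the group mean of 3.50 CPM, and Clock was at 26.7 CPM, the lowest of the group. The limit was applied to 24 groups of values, and chance flags about 1 in 20.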

How the results depend on the processing

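The 21 member results were recomputed under 563 alternatives in all, and 531 kept the direction and the side of the threshold. The other 32 changed the sign of an exercise or interaction value, none of which was called, and the cause was not tested. No genotype call of Arntl, Clock or Npas2 changed. With the slow-fibre score as covariate, the exercise effect of Clock was -0.0011 in vehicle, -0.062 in knockout-labelled muscle and -0.031 over both, its interaction was -0.061, and the exercise effect of Arntl in knockout-labelled muscle was -0.040. Without the libraries with slow-fibre markers under 50 CPM, chosen after seeing the data, the exercise effect of Arntl was -0.12 in vehicle and -0.011 over both and its interaction 0.21, while for Clock the exercise effect in knockout-labelled muscle was -0.074 and the interaction -0.15. limma-voom gave an Arntl interaction of 0.0038. Leaving out 1 replicate at a time moved the exercise effect of Clock from -0.015 to 0.093 in vehicle, -0.046 to 0.11 in knockout-labelled muscle and -0.00029 to 0.077 over both. It moved that of Npas2 in knockout-labelled muscle from -0.31 to 0.061, and the interactions of Arntl from -0.19 to 0.15 and of Clock from -0.092 to 0.074.

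Counts of called genes moved by over 1.5 times in these cases. With the covariate they went from 523 to 836 at rest and from 870 to 1404 after exercise (genotype), and from 109 to 247 in vehicle, 0 to 12 in knockout-labelled muscle and 86 to 263 over both (exercise). Fitting only the groups compared gave 567 for genotype after exercise and 61 for exercise in vehicle. Leaving out the slow-fibre-poor libraries gave 304, 61, 3 and 135 for genotype after exercise and for exercise in vehicle, in knockout-labelled muscle and over both. DESeq2 gave 195 and 167 for exercise in vehicle and over both, and 3 for the interaction. Leaving out 1 replicate gave 52 to 135 for exercise in vehicle, 35 to 109 over both and 0 to 1 for the interaction. With a prior count of 5, Npas2 kept 3 of its 5 nearest genes.

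Replicate numbers gave no clear pairing of the samples. Of 30 pairs of groups and numbers, 15 had a correlation of deviations over 0.1, within a range from -0.45 to 0.44. Between the exercised vehicle and exercised knockout-labelled groups the values were 0.26, 0.44, 0.41, 0.27 and 0.018. Of 20 samples, 0 correlated best with their own number. Whether samples with the same number were handled together was not tested. With the replicate block, log2 genotype differences were 0.25 and 0.23 for Arntl, 1.33 and 1.34 for Clock and 4.59 and 2.96 for Npas2 at rest and after exercise, and 518 and 824 genes were called. Npas2 was filtered out of the fit of its exercise groups in vehicle alone. Depth limits Npas2 in vehicle muscle, where its level rests on 0 to 6 counts a library.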

Other observations

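Of 19 genes for enzymes and cofactors that modify BMAL1, CLOCK or their repressors, 1 rose and 2 fell in knockout-labelled muscle at rest, and 1 fell after exercise. Over all genes, 3.86% were called at rest and 6.42% after exercise, and the count after exercise is near that share. Csnk1e, a casein kinase that phosphorylates PER proteins, fell by 0.55 on the log2 scale at rest (SE 0.078, edgeR adjusted p 7.47e-05) and by 0.34 after exercise (adjusted p 0.00915). The latter call was lost without the slow-fibre-poor libraries (adjusted p 0.0853). Usp9x, a deubiquitinase, had a log2 fold change of 0.70 at rest (adjusted p 0.0133), a call lost when only the groups compared were fitted (adjusted p 0.0577). Ep300, a histone acetyltransferase, fell by 0.38 at rest (adjusted p 0.0325), a call lost in 9 of 23 alternatives (adjusted p up to 0.101, without knockout-labelled rest replicate 5). Of 9 repressors of the pair, 1 rose and 6 fell at rest, and 1 rose and 4 fell after exercise. This list overlaps with the 12 genes that BMAL1 and its partner activate. Of the repressors that fell, only Cry2 is outside those 12, so the other falls were already counted above. Over all genes, 1.8% were called higher and 2.06% lower at rest, and 2.67% and 3.75% after exercise. The 6 include Bhlhe41, whose call was lost in 8 of 23 alternatives.

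With exercise in vehicle muscle, 1 of the 12 genes that BMAL1 and its partner activate was called, against 0.804% of all genes. This was Usp2, a deubiquitinase, which rose by 0.79 on the log2 scale (edgeR adjusted p 0.00179). Nfil3, listed as RORE-controlled, rose by 1.72 on the log2 scale in vehicle muscle (SE 0.17, edgeR adjusted p 3.58e-05). Averaged over both genotypes, 3 of the 12 were called, against 0.634% of all genes. Besides Usp2, these were Per1, which rose by 1.03 (adjusted p 0.0326), and Ciart, which rose by 1.50 (adjusted p 0.0266).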
